A study of Mus musculus with 11 samples.

Results

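The metallothioneins and the genes that regulate zinc around them were followed in B16-OVA, a melanoma line from the C57BL/6J mouse that expresses ovalbumin as a model antigen. The genes were taken by name, the metallothioneins Mt1 and Mt2, the zinc-sensing transcription factor Mtf1 and the zinc exporter Slc30a1, 4 of the 12626 genes tested in a table of 54686 entries. Gene expression was measured by RNA sequencing in 4 groups: heated YAP/TAZ siRNA cells (3 libraries), unheated YAP/TAZ siRNA cells (3 libraries), heated control siRNA cells (2 libraries, replicates 1 and 3) and unheated control siRNA cells (3 libraries). The siRNA pool was directed against YAP and TAZ, the transcriptional coactivators of the Hippo pathway encoded by Yap1 and Wwtr1. Heated cells were transfected for 48 h, kept at 45 °C for 1 h and returned to 37 °C for 6 h before RNA was taken. No times or temperatures are recorded here for the unheated cells, so an equal time after transfection is not known. All groups were of the same cell line and all received an siRNA. For heated control siRNA, replicate 2 is not analysed here. Separate cultures are not stated for the libraries of a group, so the p-values below measure only the spread between these libraries, which may be technical.

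Metallothioneins are small cysteine-rich proteins that hold zinc and copper ions in clusters and buffer the free metal in the cell. MTF-1, the product of Mtf1, binds DNA through zinc fingers when zinc is plentiful and switches on genes whose promoters carry metal response elements, the metallothionein genes among them. ZnT1, the product of Slc30a1, moves zinc out across the plasma membrane and is itself a target of MTF-1 in the mouse.

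The coding sequences of both metallothioneins are shown because the genes are close copies whose reads could in principle be confused. They were read from the GENCODE M21 annotation on GRCm38, and capitals mark the cysteine codons that bind the metal. Mt1 (ENSMUSG00000031765) lies on the plus strand at chr8:94179082-94180327 and Mt2 (ENSMUSG00000031762) on the plus strand at chr8:94172664-94173568.
Mt1 coding sequence: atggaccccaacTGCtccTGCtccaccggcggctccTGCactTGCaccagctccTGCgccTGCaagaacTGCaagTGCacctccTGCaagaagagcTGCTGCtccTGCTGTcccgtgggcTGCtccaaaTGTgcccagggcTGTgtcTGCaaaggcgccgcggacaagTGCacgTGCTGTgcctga
Mt2 coding sequence: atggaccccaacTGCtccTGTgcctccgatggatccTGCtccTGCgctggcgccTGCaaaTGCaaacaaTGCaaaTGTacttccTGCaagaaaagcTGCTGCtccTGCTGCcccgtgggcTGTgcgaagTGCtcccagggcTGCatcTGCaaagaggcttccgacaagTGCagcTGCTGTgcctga
Each reading frame was 186 bases long and encoded 61 amino acids, 20 of them cysteines, and all 20 cysteine codons stood at the same place in both. The frames were identical at 148 of 186 bases (79.6%). The longest run of bases shared by any Mt1 and any Mt2 transcript was 20 bases.

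The stretches before the annotated gene starts are shown because the letters that MTF-1 is known to read were searched for around those starts. They come from RefSeq on GRCm38.p6, on the plus strand, at chr8:94178839-94179081 for Mt1, chr8:94172368-94172663 for Mt2 and chr1:191906531-191906766 for Slc30a1. Capitals mark the core of the metal response element, TGCACNC or TGCGCNC, on either strand.
Mt1 promoter: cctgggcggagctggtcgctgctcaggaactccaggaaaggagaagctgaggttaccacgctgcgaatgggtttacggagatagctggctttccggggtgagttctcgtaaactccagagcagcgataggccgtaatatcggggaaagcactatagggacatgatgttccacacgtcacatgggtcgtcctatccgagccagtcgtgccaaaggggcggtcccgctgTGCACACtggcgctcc
Mt2 promoter: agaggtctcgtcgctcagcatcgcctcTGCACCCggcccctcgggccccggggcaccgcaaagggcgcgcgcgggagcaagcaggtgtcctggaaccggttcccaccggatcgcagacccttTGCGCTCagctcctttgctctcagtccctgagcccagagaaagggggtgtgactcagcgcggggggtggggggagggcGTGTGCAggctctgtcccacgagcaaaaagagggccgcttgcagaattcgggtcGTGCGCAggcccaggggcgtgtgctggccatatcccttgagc
Slc30a1 promoter: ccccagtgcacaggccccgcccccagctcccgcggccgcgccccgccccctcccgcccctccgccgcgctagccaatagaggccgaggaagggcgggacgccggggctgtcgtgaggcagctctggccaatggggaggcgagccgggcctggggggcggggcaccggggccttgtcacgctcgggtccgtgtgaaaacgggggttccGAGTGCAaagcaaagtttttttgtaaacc
In the full windows, which run from 250 bases before to 50 bases after the RefSeq start, Mt1 held 3 cores, Mt2 held 4, Slc30a1 held 2 and Mtf1 held 0. Of 32851 such windows over all genes, 25.7% held at least 1 core, 7.11% at least 2, 1.97% at least 3 and 0.517% at least 4. The antioxidant element TGACNNNGC, searched on both strands, had 1 match in the Mt2 window and 1 in the Slc30a1 window, against 12.4% of all windows with at least 1. A pair of heat shock repeats, GAANNTTC or TTCNNGAA, had 0 matches in the 4 windows and was present in 15.1% of all windows. The TEAD site GGAATG, read by the DNA-binding partners of YAP and TAZ, had 0 matches on either strand in the 4 windows and was present in 14.7% of all windows. A match is a run of letters and not a measured binding site, and the lack of one says only that the letters are not in that window. The reading frames of Mt1 and Mt2 start past their windows, at chr8:94179311 and chr8:94172848. The bases between window and frame were not searched, so the counts need not cover the whole promoter. The Mtf1 window lies inside the GENCODE gene and is not printed.

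**Figure D1:**
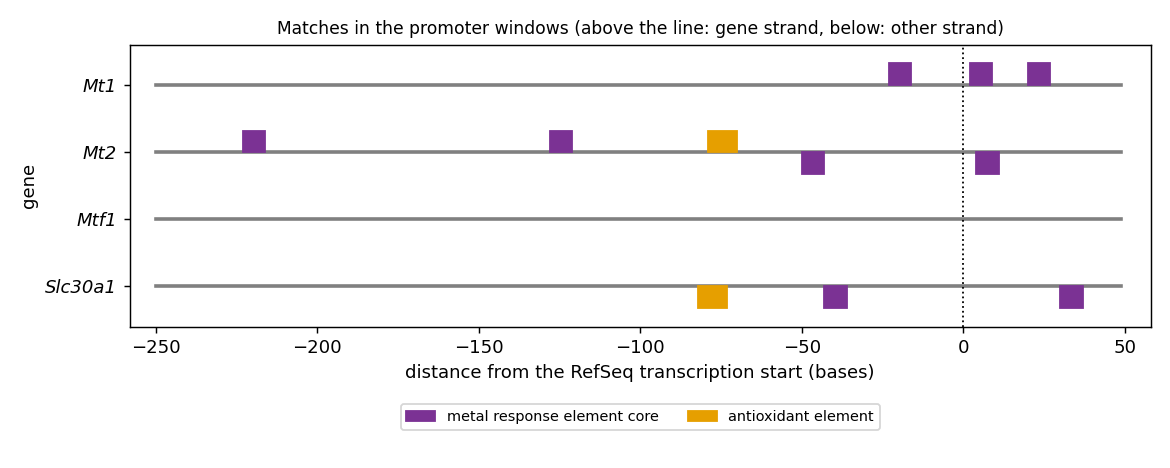
Matches to the metal response element core and the antioxidant element along the promoter windows of the 4 genes, with the distance from the RefSeq start in bases on the horizontal axis and 1 gene per line. Squares above a line are matches on the strand of the gene and squares below it are on the other strand, and the Mt2 line carries 4 cores where the Mtf1 line carries 0.

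The table held FPKM values, a transcript's fragment count scaled to its length and to the library's depth. The smallest steps of the values gave 30.4 to 43.9 M counting units (reads or read pairs, not known which) per library, with 1 unit on a 1 kb gene worth 0.0228 to 0.0329 FPKM. Yap1 fell by 1.43 on the log2 scale after heat and by 1.38 without heat in YAP/TAZ siRNA relative to control siRNA cells, and Wwtr1 fell by 1.62 and by 1.45. Dnajb1, a heat shock co-chaperone, rose with heat by 2.35 on the log2 scale in YAP/TAZ siRNA cells and by 4.87 in control siRNA cells. All 7 melanocyte markers passed the expression filter, with summed levels of 6261 to 8191 FPKM. Macrophage markers summed to 6.29 to 6.73 FPKM in heated control siRNA cells against 2.34 to 2.64 FPKM in unheated control siRNA cells, with 2 of 6 above the filter, and lymphocyte markers to 1.91 to 1.92 FPKM against 0.125 to 0.317 FPKM, with 1 of 6 above it. Endothelial markers summed to 0.995 to 1.15 FPKM in heated against 0.00348 to 0.0592 FPKM in unheated control siRNA cells, with 0 of 4 above the filter. The sums in the heated control siRNA cells came mostly from Cd68 and Lyz2 (means of 4.23 and 2.11 FPKM, against 0.718 and 1.74 FPKM in unheated control siRNA cells), Cd79a (1.85 against 0.228 FPKM) and Pecam1 (0.998 against 0.0283 FPKM). Of these 3 lists, Adgre1, Cd8a and Cdh5 were at 0 in both heated control siRNA libraries, and Cd8a was at 0 in all 11 libraries. The heated control siRNA libraries also listed more genes above 0, 23173 to 23242, than the heated YAP/TAZ siRNA libraries (21534 to 21662), the unheated YAP/TAZ siRNA libraries (20632 to 20914) and the unheated control siRNA libraries (20000 to 20365). The part of these differences in the results was not tested.

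Both metallothionein genes were lower after heat under either siRNA, and the estimated fall was smaller when YAP and TAZ were targeted. Whether that difference passed depended on the scaling for both genes, and for Mt1 also on which library was left out. In heated relative to unheated YAP/TAZ siRNA cells Mt1, Mt2 and Slc30a1 fell and Mtf1 did not pass, where 50.3% of the 12626 genes tested passed, 31.7% lower and 18.6% higher. A gene passed at a Benjamini-Hochberg adjusted p under 0.05 in a limma fit to log2(FPKM + 1). In heated relative to unheated control siRNA cells all 4 genes passed: Mt1 and Mt2 fell, and Mtf1 and Slc30a1 rose. There 49.2% of all genes passed, 36.9% lower and 12.4% higher. Fold changes below are on the log2(FPKM + 1) scale, which understates the change of genes at a few FPKM. Where groups are said below not to overlap, this describes the libraries only. With so few libraries many genes may separate in that way, and their share was not counted.

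Mt1 was among the more abundant transcripts of these cells, with a mean that ranked 123 of 12626 in unheated YAP/TAZ siRNA cells and 592 in heated control siRNA cells. Under YAP/TAZ siRNA the Mt1 level was 141, 127 and 191 FPKM in heated cells, against 261, 200.5 and 259 FPKM in unheated cells. The groups did not overlap, although heated replicate 3 stood close to unheated replicate 2. The means were 153 ± 33.3 FPKM with heat and 240.4 ± 34.6 FPKM without it (SD, n = 3 each), a 1.58-fold decrease (log2 change -0.66 ± 0.14 SE, limma adjusted p = 0.00476). In bulk RNA, less RNA in each cell and fewer cells that carry it cannot be told apart.

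In control siRNA cells the Mt1 level was 72.9 and 75.0 FPKM with heat, against 189.9, 186 and 184 FPKM without heat. Both heated libraries lay far below all 3 unheated ones. The means were 74.0 ± 1.46 FPKM (SD, n = 2) with heat and 187 ± 2.95 FPKM (SD, n = 3) without it. Mt1 was 2.50-fold lower after heat (log2 change -1.32 ± 0.16 SE, limma with Benjamini-Hochberg adjusted p = 0.000132), and 98 of the 12626 genes had a lower log2 change.

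Mt2 changed in the same direction as Mt1 with heat. Under YAP/TAZ siRNA the level was 108, 83.8 and 84.7 FPKM in heated cells, against 144, 117 and 155 FPKM in unheated cells. The groups did not overlap, and Mt2 was 1.50-fold lower after heat (log2 change -0.58 ± 0.18 SE, limma adjusted p = 0.0229). That call was lost when heated YAP/TAZ siRNA replicate 2 (-0.52) or 3 (-0.53), or unheated YAP/TAZ siRNA replicate 1 (-0.55) or 3 (-0.50), was left out. In control siRNA cells the level was 49.3 and 48.7 FPKM with heat, against 187, 117 and 173 FPKM without heat, with unheated replicate 2 the lowest of the 3, and again no overlap. Mt2 was 3.13-fold lower after heat (log2 change -1.65 ± 0.20 SE, limma adjusted p = 0.000130), and 39 of the 12626 genes had a lower log2 change.

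The heat responses of the metallothioneins were then compared between the siRNAs. The log2 response under YAP/TAZ siRNA minus that under control siRNA was 1.06 ± 0.27 SE for Mt2 (limma adjusted p = 0.0131) and 0.67 ± 0.22 SE for Mt1 (limma adjusted p = 0.0371). All 4 genes passed this test, where 37.9% of all genes passed, 24.6% higher and 13.4% lower. Without heated control siRNA replicate 1 the number of genes that passed was 2982, against 4791 with all libraries. The Mt1 difference missed the threshold when any of 6 libraries was left out: unheated YAP/TAZ siRNA replicate 2 (0.54), heated control siRNA replicate 1 (0.65) or 3 (0.69), or unheated control siRNA replicate 1 (0.65), 2 (0.67) or 3 (0.68). Under quantile normalization the difference was 0.33 for Mt1 and 0.75 for Mt2, and neither passed.

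Comparing the siRNAs at the same temperature, all 4 genes passed after heat, where 54.3% of all genes passed, 36.3% higher and 17.9% lower. Mt1 was 2.02-fold higher in heated YAP/TAZ siRNA cells than in heated control siRNA cells (log2 change 1.02 ± 0.16 SE, limma adjusted p = 0.000628), and Mt2 was 1.85-fold higher (log2 change 0.89 ± 0.20 SE, limma adjusted p = 0.00450). Every heated YAP/TAZ siRNA library lay above both heated control siRNA libraries for Mt1 and for Mt2, and the share of all genes that separate so was not counted. These comparisons share libraries with the heat comparisons above, so the same libraries count in both.

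Without heat, 1 of the 4 genes passed, Slc30a1, where 49.0% of all genes passed, 27.1% higher and 21.9% lower. Mt1 was higher in all 3 unheated YAP/TAZ siRNA libraries than in the 3 unheated control siRNA libraries, with a log2 change of 0.35 ± 0.14 SE that missed the threshold (limma adjusted p = 0.0705). It passed when heated YAP/TAZ siRNA replicate 2 (0.35) or 3 (0.35), which enter through the shared spread, or unheated YAP/TAZ siRNA replicate 2 (0.48) was left out. Mt2 overlapped between the groups, at a log2 change of -0.17 ± 0.18 SE (limma adjusted p = 0.461). In order of mean level, Mt1 stood highest in unheated YAP/TAZ siRNA cells, then in unheated control siRNA, heated YAP/TAZ siRNA and heated control siRNA cells. Of these neighbours the unheated groups did not differ beyond the threshold, and unheated control siRNA cells overlapped heated YAP/TAZ siRNA cells. For Mt2 the unheated control siRNA cells stood highest and overlapped the unheated YAP/TAZ siRNA cells, followed by heated YAP/TAZ siRNA and heated control siRNA cells.

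Taking Mt1 and Mt2 as 1 pool, their summed level was 245 ± 32.4 FPKM in heated YAP/TAZ siRNA cells, 379 ± 53.5 FPKM in unheated YAP/TAZ siRNA cells, 123 ± 1.05 FPKM in heated control siRNA cells and 346 ± 37.9 FPKM in unheated control siRNA cells (SD, n = 3, 3, 2 and 3). As a share of all FPKM in a library this was 0.0620 to 0.0764% in heated and 0.104 to 0.131% in unheated YAP/TAZ siRNA cells, and 0.0373 to 0.0374% in heated and 0.0978 to 0.121% in unheated control siRNA cells. Heat lowered the pool by 0.62 ± 0.13 SE on the log2 scale under YAP/TAZ siRNA (limma adjusted p = 0.00350) and by 1.48 ± 0.14 SE under control siRNA (limma adjusted p = 3.29e-05). The balance between the copies varied from library to library. Mt1 was 1.30, 1.52 and 2.25 times Mt2 in heated YAP/TAZ siRNA cells and 1.82, 1.71 and 1.67 times in unheated ones. It was 1.48 and 1.54 times Mt2 in heated control siRNA cells and 1.02, 1.60 and 1.06 times in unheated ones. The mean difference in the log2 ratio was 0.13 for heat within siRNA (exact permutation test over 200 arrangements, two-sided p = 0.49) and 0.33 for YAP/TAZ siRNA against control siRNA within heat (p = 0.14 in the same exact test). Without heated YAP/TAZ siRNA replicate 1 the siRNA difference was 0.41 (exact permutation p = 0.0333).

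Mt3 and Mt4, the brain and squamous-epithelium metallothioneins, did not reach the filter of 1 FPKM in 2 libraries. Mt3 stayed at or under 0.0754 FPKM and Mt4 was listed at 0 in all 11 libraries. A predicted antisense gene, Gm45774, overlaps Mt2 on the minus strand at chr8:94170748-94173412. Its level was 4.35 to 6.75 FPKM in heated and 9.43 to 11.3 FPKM in unheated YAP/TAZ siRNA cells, and 3.01 to 3.58 FPKM in heated against 9.02 to 9.33 FPKM in unheated control siRNA cells. Gm45774 fell with heat by 0.83 on the log2 scale under YAP/TAZ siRNA and by 1.24 under control siRNA. Since strand use in counting is not stated, reads from the stretch where Gm45774 and Mt2 overlap cannot be assigned to either gene here. Part of Gm45774 lies outside Mt2.

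**Figure D2:**
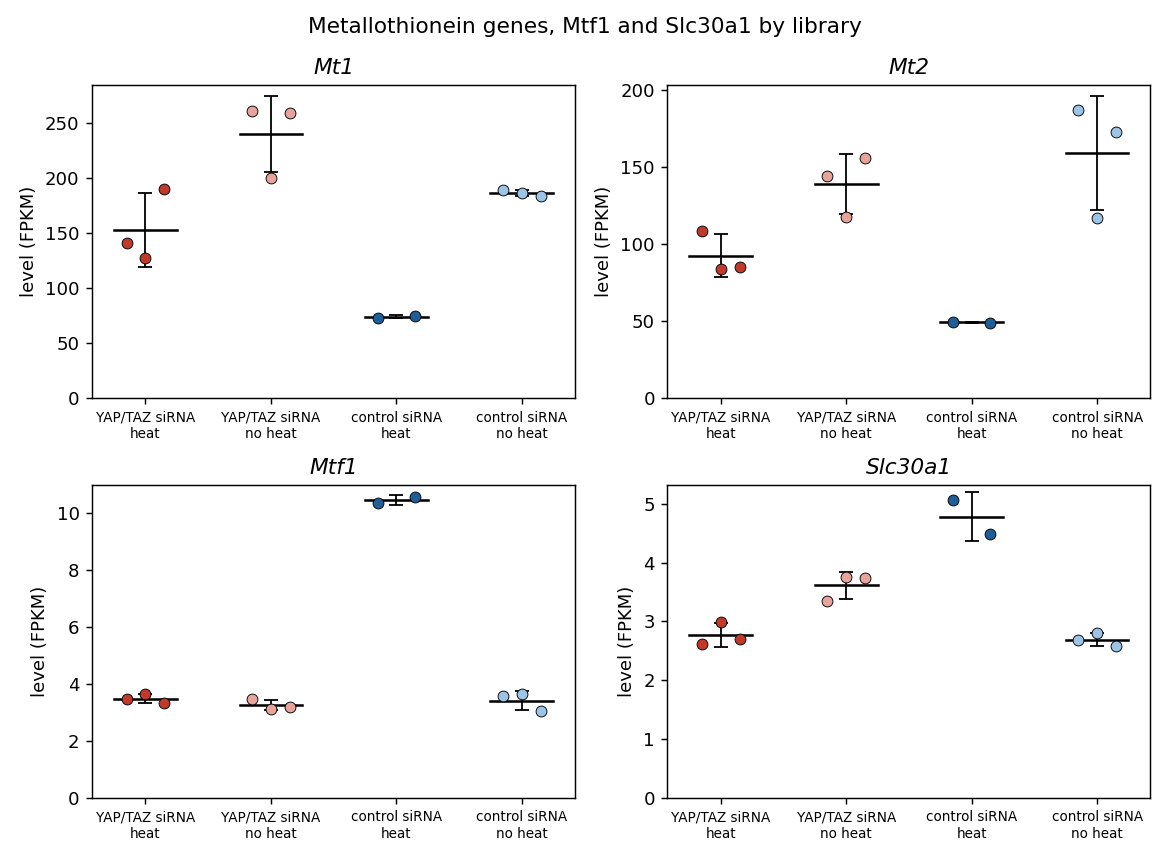
FPKM of Mt1, Mt2, Mtf1 and Slc30a1 in each of the 11 libraries (points) by group, with the group mean and SD (bar and whiskers). Mt1 and Mt2 are lowest in the 2 heated control siRNA libraries, where Mtf1 and Slc30a1 are highest.

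Mtf1 did not pass for heat under YAP/TAZ siRNA and rose with heat under control siRNA. The gene (ENSMUSG00000028890) lies on the plus strand at chr4:124802104-124849800. Under YAP/TAZ siRNA the Mtf1 level was 3.49, 3.63 and 3.34 FPKM in heated cells, against 3.45, 3.11 and 3.19 FPKM in unheated cells. These groups overlapped, and the log2 change of 0.077 ± 0.065 SE missed the threshold (limma adjusted p = 0.350). It was -0.05 with every library scaled to 1 summed total and 0.26, past the threshold, under quantile normalization.

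In control siRNA cells the Mtf1 level was 10.3 and 10.6 FPKM with heat, against 3.56, 3.63 and 3.04 FPKM without heat, so both heated libraries stood far above the unheated ones. Mtf1 was 2.60-fold higher after heat (log2 change 1.38 ± 0.073 SE, limma adjusted p = 9.66e-07). A higher log2 change was found for 259 of the 12626 genes. The heat response under YAP/TAZ siRNA was lower than that under control siRNA by 1.30 ± 0.098 on the log2 scale (SE, limma adjusted p = 2.48e-05). After heat Mtf1 was 2.56-fold lower in YAP/TAZ siRNA than in control siRNA cells (log2 change -1.35 ± 0.073 SE, limma adjusted p = 1.11e-06). Without heat the groups overlapped (log2 change -0.05 ± 0.065 SE, limma adjusted p = 0.550). The mean level was 10.5 ± 0.164 FPKM in heated control siRNA cells (SD, n = 2), and the means of the other 3 groups lay between 3.25 and 3.48 FPKM and did not pass where they were compared.

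With heat, genes next to Mtf1 fell or did not pass. Inpp5b, an inositol phosphatase gene that ends 593 bases before Mtf1 on the same strand, fell with heat by 0.33 on the log2 scale under YAP/TAZ siRNA and by 0.74 under control siRNA. Yrdc, which starts 879 bases after Mtf1, did not pass for heat under YAP/TAZ siRNA (log2 change 0.26) or under control siRNA (0.28). The minus-strand gene 1110065P20Rik overlaps the end of Mtf1 and did not pass for heat either (0.09 under YAP/TAZ siRNA and -0.21 under control siRNA). After heat, 1110065P20Rik and Inpp5b were higher in YAP/TAZ siRNA than in control siRNA cells, by 0.52 and 0.38 on the log2 scale (limma adjusted p = 0.00528 and 0.00532), and the Inpp5b difference of the responses was 0.41 (limma adjusted p = 0.0231). Yrdc was lower there by 0.43 (log2 change -0.43, limma adjusted p = 0.00917).

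Slc30a1 fell with heat under YAP/TAZ siRNA and rose with heat under control siRNA. The gene (ENSMUSG00000037434) lies on the plus strand at chr1:191906767-191913247. In YAP/TAZ siRNA cells the Slc30a1 level was 2.61, 2.99 and 2.70 FPKM with heat, against 3.35, 3.75 and 3.75 FPKM without heat. All 3 heated libraries lay below all 3 unheated ones, a 1.22-fold decrease (log2 change -0.29 ± 0.066 SE, limma adjusted p = 0.00576). This decrease was -0.12 and did not pass under quantile normalization.

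In control siRNA cells the Slc30a1 level was 5.07 and 4.49 FPKM with heat, against 2.69, 2.80 and 2.59 FPKM without heat, a 1.56-fold increase (log2 change 0.65 ± 0.074 SE, limma adjusted p = 9.19e-05). The heated libraries lay above all unheated ones. The responses differed by -0.94 ± 0.10 on the log2 scale (SE, limma adjusted p = 0.000157). After heat Slc30a1 was 1.53-fold lower in YAP/TAZ siRNA than in control siRNA cells (log2 change -0.62 ± 0.074 SE, limma adjusted p = 0.000120). Without heat it was 1.25-fold higher in YAP/TAZ siRNA than in control siRNA cells (log2 change 0.32 ± 0.066 SE, limma adjusted p = 0.00313), with no overlap. Mean levels stood in the order heated control siRNA, unheated YAP/TAZ siRNA, heated YAP/TAZ siRNA and unheated control siRNA, and the last pair overlapped.

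**Figure D3:**
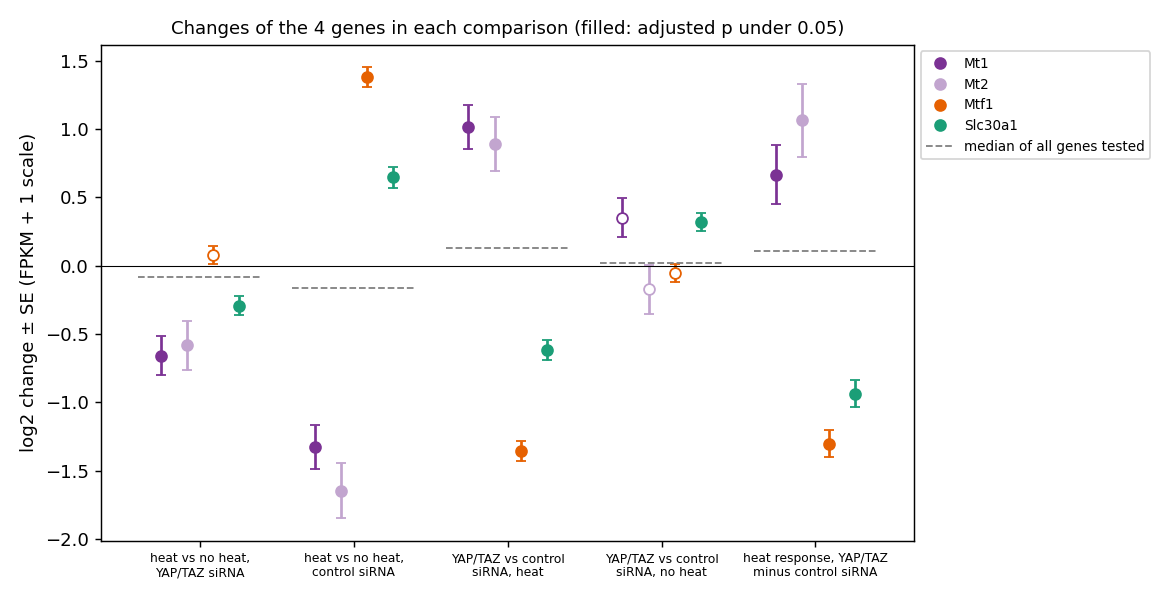
Log2 changes of the 4 genes, with SE, in the 5 comparisons, filled where the adjusted p was under 0.05, with a dashed line at the median of all genes tested. For heat under control siRNA Mt1 and Mt2 lie at -1.32 and -1.65 while Mtf1 and Slc30a1 lie at 1.38 and 0.65.

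Mt1 and Mt2 changed in the opposite direction to Mtf1 for heat under control siRNA and for YAP/TAZ siRNA after heat, which share the heated control siRNA libraries. Over all genes the median log2 change with heat was -0.09 in YAP/TAZ siRNA and -0.16 in control siRNA cells, and between the siRNAs it was 0.13 after heat and 0.02 without heat. Relative to those medians the heat changes under control siRNA were -1.16 for Mt1, -1.49 for Mt2, 1.54 for Mtf1 and 0.81 for Slc30a1. Under median-of-ratios scaling the median of heat under control siRNA was -0.03, and the changes were -1.16 for Mt1, -1.48 for Mt2, 1.53 for Mtf1 and 0.78 for Slc30a1. The scaling also moved the split of all genes called: with heat under control siRNA 1560 were higher and 4654 lower, against 2469 and 3101 under median-of-ratios scaling and 2337 and 3252 under quantile normalization. With heat under YAP/TAZ siRNA 2347 were higher and 3999 lower, against 3055 and 2955 under median-of-ratios scaling, 2729 and 2871 under quantile normalization and 1417 and 5794 with 1 summed total. For YAP/TAZ siRNA after heat 4589 were higher and 2266 lower, against 3365 and 3153 under median-of-ratios scaling and 3707 and 2941 under quantile normalization.

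With heat the zinc transporters tested were lower or did not pass under YAP/TAZ siRNA, and the number lower depended on the scaling. Under control siRNA they went both ways. ZnT proteins export zinc from the cytosol and ZIP proteins import it. Of 24 listed genes 15 were tested, 6 of 10 in the ZnT family and 9 of 14 in the ZIP family, Slc30a1 included. Heat under YAP/TAZ siRNA gave 0 higher and 7 lower, where 18.6% of all genes were higher and 31.7% lower. The list median was -0.24 beside -0.09 for all genes. The lower count was 5 under median-of-ratios scaling, 2 under quantile normalization and 12 with 1 summed total. Heat under control siRNA gave 2 higher (Slc30a1 and Slc30a9) and 4 lower, where 12.4% of all genes were higher and 36.9% lower. The list median was -0.16, the same as for all genes. The counts for heat under control siRNA were 2 higher and 3 lower under median-of-ratios scaling, 3 higher and 2 lower under quantile normalization, and 1 higher and 5 lower with 1 summed total, where Slc30a9 did not pass (0.15). After heat, Slc30a1 was the only one of the 15 to pass between the siRNAs, as lower in YAP/TAZ siRNA cells. Of all genes, 36.3% were higher and 17.9% lower in that comparison. Under median-of-ratios scaling 3 of the transporters passed as lower, and 2 did so under quantile normalization. Without heat 6 were higher and 2 lower in YAP/TAZ siRNA cells, where 27.1% of all genes were higher and 21.9% lower. The list median was 0.14 beside 0.02.

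Slc39a6, of the ZIP family, was the most abundant of the transporters tested. It was at 41.2 ± 1.04 FPKM in heated and 48.6 ± 0.367 FPKM in unheated YAP/TAZ siRNA cells (SD, n = 3 each). Slc39a1, the ZIP1 importer of the plasma membrane, was at 28.7 ± 1.13 FPKM in heated and 40.8 ± 1.57 FPKM in unheated YAP/TAZ siRNA cells (SD, n = 3 each). It fell with heat by 0.50 ± 0.047 under YAP/TAZ siRNA (SE, limma adjusted p = 6.37e-05) and by 0.35 ± 0.053 under control siRNA (SE, limma adjusted p = 0.000498). Slc39a10, an importer that MTF-1 represses in the mouse, was at 6.71 ± 0.370 FPKM in heated control siRNA cells (SD, n = 2) against 11.6 ± 0.697 FPKM in unheated control siRNA cells (SD, n = 3). It fell with heat there by 0.71 ± 0.10 (SE, limma adjusted p = 0.000351), and it was lower by 0.69 ± 0.090 in unheated YAP/TAZ siRNA than in unheated control siRNA cells (SE, limma adjusted p = 0.000203). Slc30a9, a member of the ZnT family by sequence, was at 8.14 ± 0.194 FPKM in unheated YAP/TAZ siRNA cells against 5.69 ± 0.312 FPKM in unheated control siRNA cells (SD, n = 3 each), a log2 change of 0.45 ± 0.051 (SE, limma adjusted p = 8.19e-05). The exporters Slc30a5 and Slc30a7, which load zinc into the secretory pathway, fell with heat under YAP/TAZ siRNA by 0.37 and 0.50 on the log2 scale, and under quantile normalization neither passed (-0.29 for Slc30a5 and -0.34 for Slc30a7). Slc30a5 also did not pass under median-of-ratios scaling (-0.27). The 9 transporters below the filter included Slc30a8 and Slc39a12, listed at 0 in all 11 libraries.

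**Figure D4:**
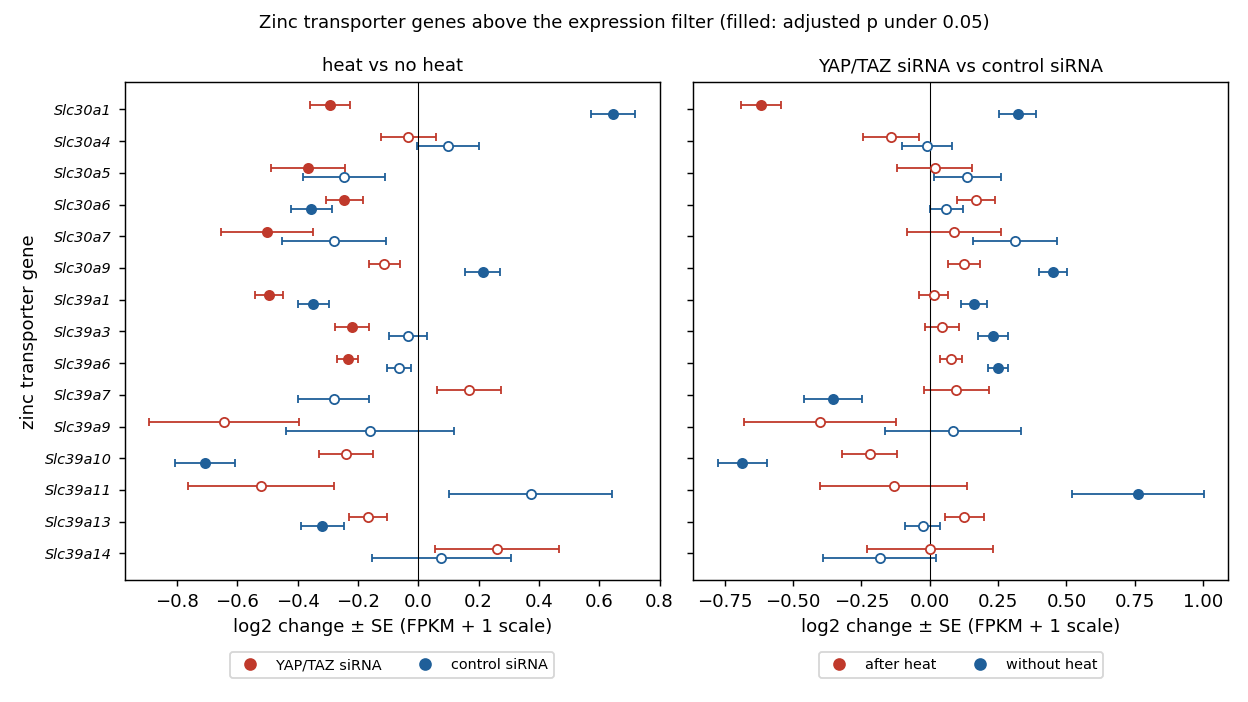
Log2 changes with SE of the 15 tested zinc transporter genes for heat (left, by siRNA) and for YAP/TAZ siRNA against control siRNA (right, by temperature), filled where the adjusted p was under 0.05. Slc30a1 is the only filled point among the after-heat values on the right, at -0.62.

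Other genes tied to MTF-1 went both ways. Of 7 listed, 6 were tested. For heat under YAP/TAZ siRNA 1 was higher and 1 lower, where 18.6% of all genes were higher and 31.7% lower. The list median was -0.19 beside -0.09 for all genes. For heat under control siRNA 3 were higher and 2 lower, where 12.4% of all genes were higher and 36.9% lower. The list median there was 0.14 beside -0.16. Under control siRNA the counts were 3 higher and 1 lower under median-of-ratios scaling and under quantile normalization, and under YAP/TAZ siRNA they were 2 higher and 1 lower under median-of-ratios scaling, 1 higher and 2 lower under quantile normalization and 1 higher and 3 lower with 1 summed total. Pgf encodes placental growth factor and is induced through MTF-1 in hypoxic mouse cells. In YAP/TAZ siRNA cells Pgf was at 0.22 to 0.36 FPKM with heat and 0.414 to 0.546 FPKM without it. It was at 10.9 and 15.3 FPKM in heated control siRNA cells, against 0.248, 0.382 and 0.585 FPKM in unheated control siRNA cells. The log2 change with heat under control siRNA was 3.32 ± 0.14 (SE, limma adjusted p = 3.13e-07). Pgf passed the filter only through the heated control siRNA group, so a difference there was built in. Pgf is 1 of the 3 genes counted as higher with heat under control siRNA. Csrp1, a LIM-domain protein gene, was at 451 ± 13.4 FPKM in heated and 429 ± 23.1 FPKM in unheated YAP/TAZ siRNA cells (SD, n = 3 each), and at 317 ± 8.47 FPKM in heated (n = 2) and 248 ± 6.56 FPKM in unheated control siRNA cells (n = 3). It rose with heat by a log2 change of 0.36 under control siRNA, and was higher in YAP/TAZ siRNA than in control siRNA cells by 0.51 after heat and by 0.79 without heat (limma adjusted p = 0.000538, 5.96e-05 and 2.30e-06).

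Copper handling genes, which meet metallothionein through the metal it shares, went both ways with heat under YAP/TAZ siRNA. Of 9 listed, 8 were tested. Heat under YAP/TAZ siRNA gave 4 higher and 3 lower, where 18.6% of all genes were higher and 31.7% lower, with a list median of 0.29 beside -0.09 for all genes. Heat under control siRNA gave 0 higher and 1 lower, where 12.4% were higher and 36.9% lower, with a median of -0.03 beside -0.16. The difference of the responses gave 5 higher and 0 lower, where 24.6% were higher and 13.4% lower, with a median of 0.46 beside 0.11. The gene lower under control siRNA, Ccs, which encodes the copper chaperone of superoxide dismutase, did not pass under median-of-ratios scaling (-0.19) or quantile normalization (-0.18). Atox1, a copper chaperone, was at 131 ± 16.6 FPKM in heated and 82.8 ± 10.9 FPKM in unheated YAP/TAZ siRNA cells (SD, n = 3 each). Sod1, the copper-zinc superoxide dismutase, was at 55.7 ± 6.82 FPKM in heated and 34.3 ± 3.21 FPKM in unheated YAP/TAZ siRNA cells. In heated and unheated control siRNA cells Atox1 was at 114 and 110 FPKM, and Sod1 at 47.0 and 42.9 FPKM (means, n = 2 and 3). Without heat both were lower in YAP/TAZ siRNA than in control siRNA cells (-0.42 and -0.32, limma adjusted p = 0.0146 and 0.0172). There 1 of the 8 was higher and 2 lower, where 27.1% of all genes were higher and 21.9% lower. After heat neither Atox1 (0.19) nor Sod1 (0.23) passed between the siRNAs. Atp7a, the copper-exporting ATPase, fell with heat under YAP/TAZ siRNA by 1.00 ± 0.25 on the log2 scale (SE, limma adjusted p = 0.00850) and did not pass under control siRNA (-0.08). The difference of the Atp7a responses did not pass either (-0.92, limma adjusted p = 0.0787). The count of 5 higher in the difference of the responses was 4 under median-of-ratios scaling and 3 under quantile normalization.

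Of 9 factors that act on metallothionein promoters, all were tested, Mtf1 included. For heat under YAP/TAZ siRNA 1 was higher and 5 lower, where 18.6% of all genes were higher and 31.7% lower, with a list median of -0.41 beside -0.09 for all genes. For heat under control siRNA 2 were higher and 5 lower, where 12.4% were higher and 36.9% lower, with a median of -0.17 beside -0.16. This split turned with the scaling, to 4 higher and 3 lower under median-of-ratios scaling and 4 higher and 2 lower under quantile normalization, where Ep300 and Sp1 passed as higher. After heat 0 were higher and 5 lower in YAP/TAZ siRNA than in control siRNA cells, where 36.3% were higher and 17.9% lower, with a median of -0.63 beside 0.13. Nfe2l2, the gene of NRF2, which reads antioxidant elements, was at 15.7 ± 0.866 FPKM in heated and 34.0 ± 0.995 FPKM in unheated YAP/TAZ siRNA cells (SD, n = 3 each), and at 25.5 ± 4.15 FPKM in heated (n = 2) and 45.5 ± 1.21 FPKM in unheated control siRNA cells (n = 3). It fell with heat by 1.07 ± 0.077 under YAP/TAZ siRNA (SE, limma adjusted p = 1.59e-05) and by 0.82 ± 0.086 under control siRNA (SE, limma adjusted p = 5.27e-05). Sp1, a general GC-box factor, fell with heat by 0.64 under YAP/TAZ siRNA and did not pass under control siRNA (0.23, against 0.39 under median-of-ratios scaling), and the difference of the responses was -0.87 ± 0.15 (SE, limma adjusted p = 0.00176). Hsf1, the heat shock factor, rose by 0.24 on the log2 scale under YAP/TAZ siRNA and fell by 0.17 under control siRNA. Neither held under every scaling: the first was 0.10 and not past the threshold with 1 summed total, and the second was -0.02 under median-of-ratios scaling and 0.02 under quantile normalization.

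Genes induced by glucocorticoid, a further stimulus of the metallothionein genes, were listed as well, and 6 of 7 were tested. For heat under YAP/TAZ siRNA 1 was higher and 2 lower, where 18.6% of all genes were higher and 31.7% lower, with a list median of -0.13 beside -0.09. For heat under control siRNA 2 were higher and 1 lower, where 12.4% were higher and 36.9% lower, with a median of 0.13 beside -0.16. The difference of the responses gave 1 higher and 4 lower, where 24.6% were higher and 13.4% lower, with a median of -0.87 beside 0.11. Fkbp5, which encodes a co-chaperone of the glucocorticoid receptor, was the gene that fell under control siRNA, by 0.49 ± 0.053 (SE, limma adjusted p = 6.28e-05). Fkbp5 was also the gene that was higher with heat under YAP/TAZ siRNA (0.14, limma adjusted p = 0.0350), which was -0.01 with 1 summed total. Dusp1, a MAP kinase phosphatase gene, was at 15.2 and 16.5 FPKM in heated control siRNA cells, against 2.96, 3.11 and 3.22 FPKM in unheated control siRNA cells. Sgk1, a serum- and glucocorticoid-regulated kinase gene, was at 5.06 and 5.94 FPKM against 1.02, 1.10 and 1.30 FPKM in the same groups. Their log2 changes were 2.04 ± 0.11 and 1.60 ± 0.11 (SE, limma adjusted p = 1.33e-06 and 3.74e-06).

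The genes whose pattern over the 11 libraries was most like each of the 4 were ranked by Pearson r of log2(FPKM + 1) among 10066 named genes. Libraries of a group share their treatment, so r is a description and carries no test. For Mt1 these were Slc16a3 (r = 0.987), Scfd2 (0.985), Oma1 (0.981), Rtl8a (0.979) and Rhoj (0.975). For Mt2 they were B4gat1 (r = 0.978), Ranbp3 (0.977), Abhd8 (0.969), Kcnn4 (0.963) and Fadd (0.962). Slc16a3, which encodes the lactate exporter MCT4, was at 1.93 ± 0.364 FPKM in heated and 3.08 ± 0.139 FPKM in unheated YAP/TAZ siRNA cells (SD, n = 3 each), and at 0.501 ± 0.0210 FPKM in heated (n = 2) and 2.45 ± 0.0746 FPKM in unheated control siRNA cells (n = 3). For Mtf1 the leading genes, Ifitm10, Myo1g, Notch1, Ccdc81 and Tbxa2r (r = 0.992 to 0.993), were highest in the heated control siRNA cells, the group through which they passed the filter. The receptor gene Notch1 was at 2.10 ± 0.216 FPKM there (SD, n = 2) against 0.213 ± 0.0322 FPKM in unheated control siRNA cells (SD, n = 3). For Slc30a1 they were Spred3 (r = 0.986), Trp53inp1 (0.983), Sesn2 (0.977), Cln8 (0.971) and Zfp672 (0.970). Sesn2, the stress-induced sestrin 2 gene, was at 9.75 ± 0.563 FPKM in heated and 19.8 ± 0.797 FPKM in unheated YAP/TAZ siRNA cells, and at 51.2 ± 7.31 FPKM in heated and 10.6 ± 0.291 FPKM in unheated control siRNA cells.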

How the data were processed

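RNA sequencing of B16-OVA cells gave 11 libraries in 4 groups, taken from the sample labels. The authors deposited 1 table of FPKM values per gene, per the file headers. Trimmomatic 0.36, HISAT2, SAMtools, StringTie and DESeq2, and the build GRCm38, are named without a role in the submitters' processing notes. Settings, annotation and strand use: not given in the sources used here. Per the labels' protocols, Trizol was used for RNA extraction and the NEBNext Ultra kit for the libraries. Depth was read from the smallest FPKM steps, in reads or read pairs (not known), and 25.5 to 28.6% of low values were whole multiples within 0.02, so reads were not recovered and no count model was used.

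Values were taken as log2(FPKM + 1), and the 12626 genes that reached 1 FPKM in 2 or more libraries were tested. A limma 3.58.1 fit (R 4.3.3, empirical Bayes with trend, a mean per group, 7 residual degrees of freedom) gave 5 comparisons, each adjusted by Benjamini-Hochberg over all genes tested. The fit was also run on simulated data with independent genes, few of them changed and all upward. Far more genes were called in the real libraries, so the simulation does not show how the fit performs on them. No batch is given in the labels. Ensembl identifiers were matched to GENCODE M21 symbols for 54038 of 54104. The members and lists were chosen with earlier results of these data known. Named genes were the 4 members, up to 4 called genes by adjusted p from each list and comparison, the 5 genes most like each member, and the check genes; neighbouring genes, and list genes named for a missed or lost call, were added after their values were seen. Alternatives were the pseudocount, the filter, 3 other scalings, a replicate block, fits of the compared groups alone and each library left out; list genes under the 3 scalings were computed after the data were seen.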

Additional observations from a re-analysis of the deposited data

Results flagged for a closer look

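The difference in heat response between the siRNAs passed for each of the 4 genes, in the same limma fit with Benjamini-Hochberg adjustment. Of all genes 37.9% passed this test, 24.6% higher and 13.4% lower. The Mt1 call was kept in 5 of 11 fits that left out 1 library, and under quantile normalization neither metallothionein passed. The log2 response under YAP/TAZ siRNA minus that under control siRNA was 0.67 for Mt1 (adjusted p = 0.0371), 1.06 for Mt2 (adjusted p = 0.0131), -1.30 for Mtf1 (adjusted p = 2.48e-05) and -0.94 for Slc30a1 (adjusted p = 0.000157). Mt1 and Mt2 were lower after heat in every heated library than in every unheated library of the same siRNA. For Slc30a1 the direction itself differed, with 3 of 3 heated YAP/TAZ siRNA libraries below all unheated ones and 2 of 2 heated control siRNA libraries above all unheated ones. The share of all genes whose libraries separate in this way was not counted. The cause of these differences was not tested.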

How the results depend on the processing

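Of 583 values computed over the alternatives, 551 were classed as unchanged. For a gene, the metallothionein sum or the Mt1/Mt2 ratio this meant the same direction and side of the threshold. The 583 also hold counts of genes called, which were classed as unchanged when they stayed near the count of the main fit, a looser rule. For heat under control siRNA and for YAP/TAZ siRNA after heat, every alternative kept the call and direction of all 4 genes, except that Slc30a1 has no value with a filter of 5 FPKM. With no filter Mt2 for heat under YAP/TAZ siRNA (-0.58) and the Mt1 difference of responses (0.67) missed the threshold, and under median-of-ratios scaling they did so at -0.48 and 0.60. Quantile normalization ended the calls of Slc30a1 for heat under YAP/TAZ siRNA (-0.12) and of the difference of responses for Mt1 (0.33), Mt2 (0.75) and their sum (0.39). It brought past the threshold Mtf1 for heat under YAP/TAZ siRNA (0.26) and, for siRNA without heat, Mt1 (0.48), Mtf1 (-0.16) and the metallothionein sum (0.32). With 1 summed total Mtf1 for heat under YAP/TAZ siRNA was -0.050, the opposite sign, and Mt1 for siRNA without heat passed (0.36). It also passed when only the compared groups were fitted (0.35).

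With a replicate block, Mt1 (0.35) and the metallothionein sum (0.13) for siRNA without heat passed. Same-numbered libraries had deviations that correlated at -0.11 to 0.134 (15 pairs, median 0.01). Pairs with unlike numbers correlated at -0.18 to 0.155 (30 pairs, median -0.017). Of 11 libraries, 5 correlated best with a library of their own number. The labels do not say whether the numbers pair the libraries, and with so few libraries per group these values cannot decide it. Under the replicate block 6595, 6463, 5294, 7139 and 6499 genes passed, against 6346, 6214, 4791, 6855 and 6181, for heat under YAP/TAZ siRNA, heat under control siRNA, their difference, siRNA after heat and siRNA without heat.

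Leaving out 1 library at a time gave -0.70 to -0.50 for Mt2 for heat under YAP/TAZ siRNA, 0.50 to 0.79 for the Mt1 difference of responses, 0.29 to 0.48 for Mt1 for siRNA without heat, 0.21 to 0.43 for the siRNA difference in the log2 Mt1/Mt2 ratio, and 2982 to 4967 genes for the difference of responses. The cause of these changes was not tested. Genes that did not reach 1 FPKM in 2 or more libraries were not compared.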

Other observations

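Within 250 kb of Mt1, 11 genes passed the expression filter, a window set with the values of the 4 genes known. The heat responses there were mixed. Herpud1, an endoplasmic reticulum stress gene, fell with heat by 1.00 on the log2 scale under YAP/TAZ siRNA (limma adjusted p = 4.43e-05) and did not pass under control siRNA (0.08, limma adjusted p = 0.546). Nup93, a nucleoporin gene, was 0.12 higher with heat under YAP/TAZ siRNA (limma adjusted p = 0.0480) and 0.30 lower under control siRNA (log2 change -0.30, limma adjusted p = 0.000988). Bbs2, a gene of the ciliary BBSome, was higher in YAP/TAZ siRNA than in control siRNA cells by 0.82 after heat and by 0.62 without heat (limma adjusted p = 1.19e-05 and 3.17e-05).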
